A study of Mus musculus with 12 samples.

Results

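Whole livers of Atg7 KO mice (Alb-Cre:Atg7 FF), in which Cre under the albumin promoter removes Atg7 from hepatocytes, were compared with whole livers of Cre-negative control mice (Atg7 FF) over all genes measured on MouseWG-6 v2.0 bead arrays. Membership followed the source name of each array, which gave 8 of the 12 arrays of the series, 4 of Atg7 KO and 4 of control livers. All mice were 2 months old and all carried floxed Atg7 alleles. The 4 Atg7 KO livers were labelled male and came from the Alb line. Of the 4 control livers, 2 came from the Alb line, replicate 1 (male) and replicate 3 (female), and 2 from the Olig1 line, replicates 2 and 4 (both female). Each of the 2 chips held 2 livers of each group. The remaining 4 arrays held livers of Olig1-Cre:Atg7 FF mice (3 female, 1 male), labelled Atg7 cKO like the Alb-Cre mice, in which Cre is driven by a gene of the oligodendrocyte lineage, and they enter only a closing comparison.

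Atg7 is the enzyme that activates the ubiquitin-like proteins of autophagy, and without it the membrane that encloses cargo for the lysosome does not mature. Among the cargo is the receptor p62, encoded by Sqstm1, which binds Keap1. Keap1 in turn marks the transcription factor Nrf2 for destruction, so that the Nrf2 targets, enzymes that conjugate and reduce toxic compounds, are the genes best known to respond when autophagy is lost in the liver. Because RNA was taken from whole livers, a lower transcript can mean fewer cells of a type or less RNA per cell, which cannot be told apart here.

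The arrays were normalised together by quantiles and values are given as log2 signals. The Atg7 probe was too dim to check the genotype. It was detected above background only in Atg7 KO replicate 3 and control replicate 2, and it was not tested. The share of probes detected was 39.8% to 43.9% on the Atg7 KO arrays and 34.2% to 37.8% on the control arrays. Pairs of Atg7 KO arrays had a median correlation of 0.975 across genes, pairs of control arrays 0.977, and pairs of 1 array from each group 0.909. The signals of 18 hepatocyte markers summed to between 129520 and 146970 in Atg7 KO livers and to between 169820 and 188950 in control livers, while 5 of 12 neural markers reached the detection filter.

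The transcriptome of Atg7 KO livers differed from that of control livers in more genes upward than downward. Some detoxifying enzymes and secreted proteins were among the genes with the largest rises. Some cytochromes P450 and other hepatocyte enzymes were among those with the largest falls. At an adjusted p under 0.05 from limma, 2088 of 10711 genes were higher in Atg7 KO livers (19.5%) and 1644 were lower (15.3%), together 3732 genes or 34.8%. A log2 difference of at least 1 was reached by 807 genes that rose and 444 that fell, and one of at least 2 by 181 and 80 genes. Of the called genes, 32 were not detected on any Atg7 KO array and 335 on any control array. For such genes a fold is given as a lower bound, set against the lowest signal among detected probes of each array or the signal of the gene itself, whichever was higher. The median log2 difference of all genes was -0.0069. Scaling each array to 1 median in place of quantiles put that median at 0.59 and gave 4854 genes higher and 163 lower (96.8% of calls higher, against 55.9%). Many of the lower calls below therefore depend on the choice between quantiles and 1 median. On every array most probes were not detected, so that the median used for scaling was that of probes near background.

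**Figure D1:**
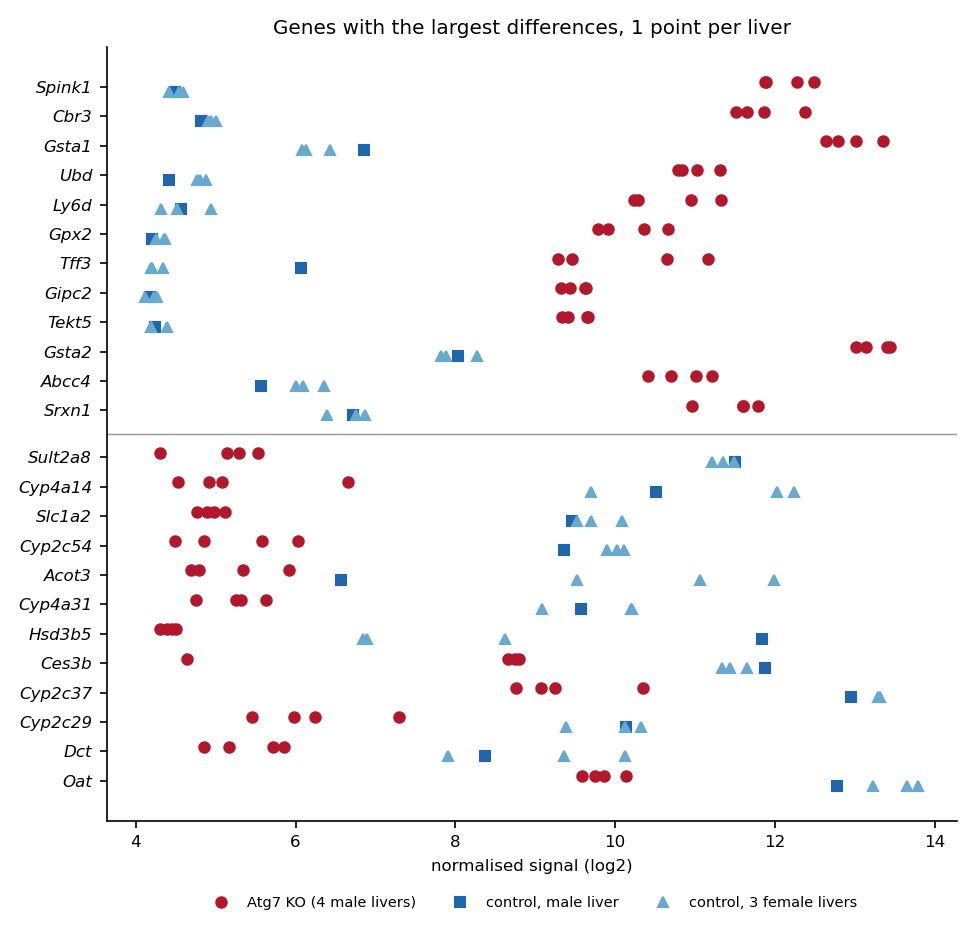
Log2 signal of the 12 genes with the highest and the 12 with the lowest log2 difference among the called genes without overlap between groups. Each point is 1 liver (4 Atg7 KO livers above, then the male control and the 3 female controls of the same gene), and for Acot3 the male control lies near the Atg7 KO livers, at 6.56.

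The largest difference was that of Spink1, a secreted inhibitor of trypsin. On the log2 scale it stood at 11.89, 12.27, 11.87 and 12.49 in Atg7 KO livers, against 4.50, 4.42, 4.60 and 4.54 in control livers, where no array detected it. The groups lay far apart, and the rise of Spink1 came to at least 164-fold (limma, adjusted p = 1.76e-09). Ubd, a ubiquitin-like protein induced by inflammatory cytokines, was at 10.79, 11.31, 10.84 and 11.02 in Atg7 KO livers and at 4.41, 4.81, 4.76 and 4.88 in control livers. Its log2 difference was 6.27 (SE 0.16, adjusted p = 3.17e-09). Tff3, a trefoil peptide of mucous epithelia, showed more spread, with 9.46, 10.64, 9.28 and 11.16 in Atg7 KO livers and 6.07, 4.20, 4.35 and 4.20 in control livers. The male control was the highest of the controls and the groups still did not overlap (log2 difference 5.43, SE 0.50, adjusted p = 3.15e-05). Ly6d, a membrane-anchored surface protein, had a log2 difference of 6.11 (SE 0.25). Gipc2, a PDZ domain protein, and Tekt5, a filament protein known from sperm flagella, were at least 26.6-fold and at least 26.7-fold higher, and no control array detected either.

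At the other end, the sulfotransferase Sult2a8 was at 5.54, 5.14, 4.30 and 5.29 in Atg7 KO livers, against 11.50, 11.49, 11.34 and 11.21 in control livers. The groups did not come near each other (log2 difference -6.32, SE 0.23, adjusted p = 5.51e-08). Slc1a2, a glutamate transporter that hepatocytes around the central vein carry, was at 4.89, 5.12, 4.77 and 4.98 in Atg7 KO livers and 9.46, 10.09, 9.70 and 9.52 in control livers (log2 difference -4.75, SE 0.16). Oat, the ornithine aminotransferase that is also found around the central vein, was at 9.86, 9.75, 10.14 and 9.58 in Atg7 KO livers and 12.77, 13.79, 13.66 and 13.22 in control livers (log2 difference -3.53, SE 0.22). All 4 Atg7 KO livers lay below all controls for these 3 genes. Dct, an enzyme known from melanin synthesis, had a log2 difference of -3.54 (SE 0.43, adjusted p = 0.000183). For Ces3b, a liver carboxylesterase, 1 Atg7 KO liver stood apart, with 8.75, 8.79, 4.64 and 8.65 in Atg7 KO livers and 11.88, 11.64, 11.44 and 11.34 in control livers. The call for Ces3b (log2 difference -3.87, SE 0.79, adjusted p = 0.00386) was lost with sex as a covariate, a fit that rests on 1 male control. The difference to that control was -4.17.

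Most genes known to be driven by Nrf2 were higher in Atg7 KO livers. Of 35 listed targets, 30 passed the detection filter, and of these 23 rose, none fell and 7 did not pass the test, where 19.5% of all genes rose. Of the 30, 1 was not detected on any control array. The median log2 difference of the list was 1.38, against -0.0069 for all genes. Cbr3, a carbonyl reductase, had log2 signals of 12.38, 11.51, 11.65 and 11.86 in Atg7 KO livers, against 4.82, 4.91, 4.94 and 5.0 in control livers. Every Atg7 KO liver was far above every control, a difference of 6.93 (SE 0.18, adjusted p = 3.70e-09). Gpx2, a glutathione peroxidase of epithelia, was at least 42.4-fold higher, with no signal above background in any control liver. Srxn1, which restores oxidised peroxiredoxins, was at 11.60, 11.60, 11.79 and 10.96 in Atg7 KO livers and at 6.72, 6.87, 6.76 and 6.39 in control livers (log2 difference 4.80, SE 0.19). The exporter Abcc4 rose as well (4.82, SE 0.21).

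The glutathione S-transferases, which couple glutathione to electrophiles, moved in both directions. Of 22 genes, 12 rose (54.5%, against 19.5% of all genes) and 5 fell (22.7%, against 15.3%). The alpha-class genes Gsta1 and Gsta2 led the rise. Gsta1 was at 12.78, 12.64, 13.35 and 13.01 in Atg7 KO livers and at 6.85, 6.13, 6.08 and 6.43 in control livers, a 95.2-fold difference without overlap (adjusted p = 1.66e-08). Gsta1 and Gsta2 are near-identical in sequence, and their probes may not tell them apart. Gstm3 of the mu class was also higher (log2 difference 3.94, SE 0.40, adjusted p = 5.36e-05). Gstz1, an enzyme of tyrosine breakdown, was lower (-0.80, SE 0.11, adjusted p = 0.000426), and Gstk1, the mitochondrial and peroxisomal member, too (-1.62, SE 0.31, adjusted p = 0.00277). The call for Gstk1 was lost with sex as a covariate, within chip 1 and with the brightest probe in place of the median. Against the male control alone its difference was -0.77. With the arrays scaled to 1 median, 13 members were higher and none was lower.

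Upstream of these targets, the receptor Sqstm1 was at 11.87, 12.12, 11.95 and 12.05 in Atg7 KO livers, against 10.77, 10.45, 10.40 and 10.37 in control livers. It was 2.83-fold higher with no overlap (adjusted p = 2.29e-05 from limma). The transcript of Nrf2 itself, Nfe2l2, had a log2 difference of 0.35 (SE 0.13, adjusted p = 0.0538), and that of Keap1 one of -0.072 (adjusted p = 0.693). Neither passed the test. For Nfe2l2 6 alternatives did, among them the cubic spline (adjusted p = 0.0316), 1 median (0.00392) and the fit without Atg7 KO replicate 1 (0.0242), over a range of adjusted p from 0.00392 to 0.337 in all alternatives. Nqo1, the quinone reductase used as the standard Nrf2 reporter, was at 7.38, 7.06, 7.41 and 7.20 in Atg7 KO livers and at 5.09, 5.33, 5.31 and 5.42 in control livers (log2 difference 1.97, SE 0.13). Gclc and Gclm, the subunits of the enzyme that begins glutathione synthesis, differed by 2.14 (SE 0.50) and 0.79 (SE 0.15), and Slc7a11, the cystine importer, by 2.07 (SE 0.14). The calls for Gclc and Gclm were lost within chip 1 and when sex was a covariate (limma, adjusted p = 0.20 and 0.123). The keratins Krt8 and Krt18, which form inclusions with p62 in injured hepatocytes, were 3.72-fold and 2.90-fold higher (adjusted p = 9.44e-06 and 6.30e-06). Nfe2l2, Keap1, Nqo1, Gclc, Gclm, Slc7a11, Krt8 and Krt18 were named after their values were seen.

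Nrf2 binds DNA at the antioxidant response element, whose core was searched as TGACNNNGC on both strands of the 300 bases from 250 before to 50 after each RefSeq start site (GRCm38.p6). Of the listed targets 30 had such a window, and 9 of these 30 genes (30%) held the core, compared with 3781 of 27025 genes with a promoter window (14%) and 1432 of 8681 tested genes with one (16.5%). Of the 23 targets that rose, 20 had a window and 4 of these (20%) held a match, namely Abcc4, Gclm, Srxn1 and Txnrd1, and of the 7 not called 2 of 6 did (33.3%). The known elements of many targets lie further upstream than this window reaches. The window of Srxn1 (chr2:152105274-152105573, plus strand) is shown because Srxn1 is among the 12 genes with the largest rise, with the match in capitals, here on the opposite strand.
Srxn1: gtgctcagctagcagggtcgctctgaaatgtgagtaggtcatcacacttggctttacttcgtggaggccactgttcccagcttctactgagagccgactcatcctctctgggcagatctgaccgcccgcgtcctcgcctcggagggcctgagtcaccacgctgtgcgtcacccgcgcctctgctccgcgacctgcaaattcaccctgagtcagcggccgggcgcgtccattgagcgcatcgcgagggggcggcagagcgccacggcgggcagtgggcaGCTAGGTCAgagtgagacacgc

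**Figure D2:**
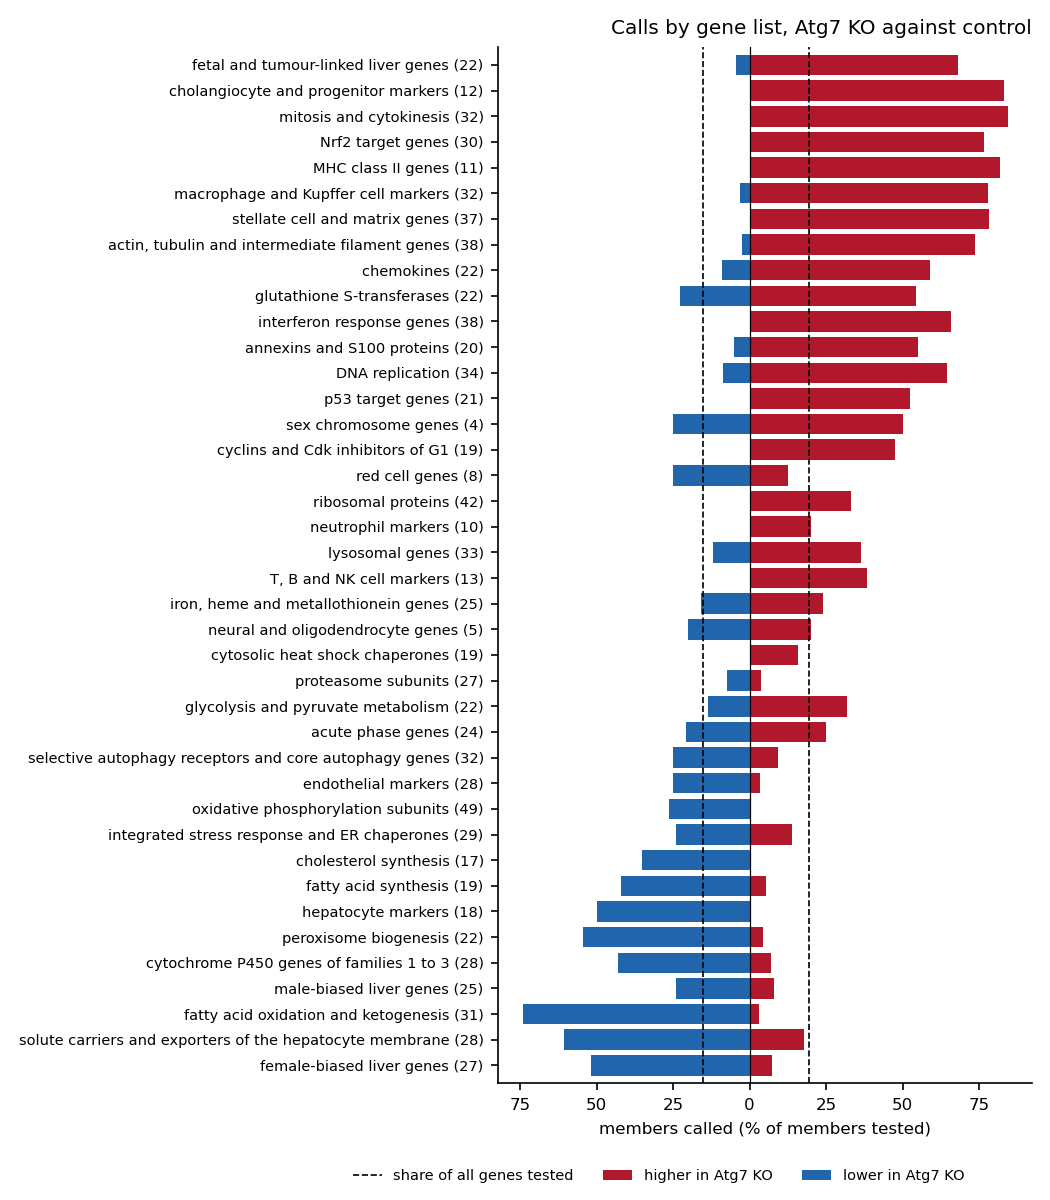
Share of the tested members of each gene list that were higher (right) or lower (left) in Atg7 KO than in control livers (limma, adjusted p under 0.05), with the number tested in brackets. The dashed lines mark the shares over all 10711 genes, 19.5% higher and 15.3% lower, and the lists run from the highest median log2 difference at the top to the lowest.

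Genes of mitosis and of DNA replication were higher in Atg7 KO livers for the most part, as were some inhibitors of the cell cycle. Of 50 genes of mitosis and cytokinesis, 32 passed the detection filter, 27 of them rose and none fell, and the median log2 difference was 1.44. Of the 32 genes, 12 were not detected on any control array and had passed the filter through the other groups, so that the count is no measure of the whole list. Prc1, which bundles microtubules between separating chromosomes, was at 8.99, 8.88, 9.61 and 8.18 in Atg7 KO livers, against 4.68, 5.18, 5.53 and 5.99 in control livers (log2 difference 3.57, SE 0.32, adjusted p = 2.83e-05). Cdk1, the kinase that starts mitosis, was at 7.87, 7.50, 8.11 and 7.04 in Atg7 KO livers and at 4.24, 4.39, 4.65 and 5.17 in control livers (log2 difference 3.02, SE 0.26). In both genes Atg7 KO replicate 3 was the highest and replicate 4 the lowest of its group, and no value overlapped. Pbk, a mitotic kinase, had a log2 difference of 3.10 (SE 0.22).

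Of 34 tested genes of DNA replication, 22 rose and 3 fell, with 5 of the 34 not detected on any control array. In the fit with sex 12 were higher and 1 lower. The helicase subunit Mcm6 was at 8.04, 7.02, 8.38 and 8.33 in Atg7 KO livers and at 4.33, 5.20, 4.38 and 5.61 in control livers (log2 difference 3.06, SE 0.35, adjusted p = 0.000132). Uhrf1, which helps to copy DNA methylation, and the helicase subunit Mcm5 differed by 2.80 (SE 0.37) and 2.30 (SE 0.32). Mcm10, which loads the replication machinery, ran the other way, with 6.86, 7.54, 6.35 and 7.56 in Atg7 KO livers and 10.05, 9.33, 8.37 and 9.12 in control livers. All controls were higher than all Atg7 KO livers for Mcm10 (log2 difference -2.14, SE 0.36, adjusted p = 0.00128). Among 19 cyclins and Cdk inhibitors of G1, 9 rose and none fell (47.4% higher, against 19.5% of all genes). Among 21 targets of p53, the tumour suppressor that answers DNA damage, 11 rose and none fell (52.4% higher). In each of these lists 3 genes were not detected on any control array. Both lists hold Cdkn1a, the Cdk inhibitor p21, which was at 7.17, 7.47, 8.26 and 7.31 in Atg7 KO livers and 5.76, 4.53, 5.43 and 4.63 in control livers, 5.52-fold higher (adjusted p = 0.00023). Cdkn2b, the inhibitor p15, was at least 2.21-fold higher, E2f1, a transcription factor of S phase, differed by 1.54 (SE 0.19), and the p53 target Phlda3 by 2.38 (SE 0.18).

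Promoters of genes expressed in mitosis often carry the cell cycle homology region, which was searched as TTTGAA on both strands of the same windows. Of the 50 listed genes of mitosis and cytokinesis 42 had a window, and 29 of these 42 genes (69%) held the motif, compared with 5466 of 27025 genes (20.2%) in all and 1274 of 8681 (14.7%) of the tested genes with a window. Among the 27 members that rose, 23 had a window and 19 of these held it. In the list, 29 of the 32 windows with a match had one within 50 bases of the start site (90.6%), against 27.6% of the matching windows of all genes. A match describes the letters only. Windows of 4 members that rose are shown, Cdk1 (chr10:69352863-69353162, minus strand), Prc1 (chr7:80294201-80294500, plus strand), Plk1 (chr7:122159185-122159484, plus strand) and Cdc20 (chr4:118437294-118437593, minus strand), with the motif in capitals, to let its place near the start site be read. Counted from the start site at 0, it begins at -71 and -15 in Cdk1, at -5 in Prc1, at 30 in Plk1 and at -18 in Cdc20. Plk1, a mitotic kinase, and Cdc20, an activator of the ligase that ends metaphase, were named after their values were seen and differed by 2.35 (SE 0.29) and 2.50 (SE 0.23) on the log2 scale.
Cdk1: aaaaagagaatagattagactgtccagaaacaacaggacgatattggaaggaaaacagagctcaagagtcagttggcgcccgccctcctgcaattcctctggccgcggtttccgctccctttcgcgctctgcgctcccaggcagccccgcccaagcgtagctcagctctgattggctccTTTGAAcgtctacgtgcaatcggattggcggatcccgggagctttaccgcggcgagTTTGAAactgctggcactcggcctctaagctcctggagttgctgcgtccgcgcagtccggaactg
Prc1: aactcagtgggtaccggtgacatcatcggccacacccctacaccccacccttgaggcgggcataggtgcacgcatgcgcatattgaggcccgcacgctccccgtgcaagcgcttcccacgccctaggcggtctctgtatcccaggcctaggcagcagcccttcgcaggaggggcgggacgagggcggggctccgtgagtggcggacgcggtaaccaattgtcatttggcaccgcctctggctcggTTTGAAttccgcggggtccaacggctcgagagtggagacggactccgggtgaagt
Plk1: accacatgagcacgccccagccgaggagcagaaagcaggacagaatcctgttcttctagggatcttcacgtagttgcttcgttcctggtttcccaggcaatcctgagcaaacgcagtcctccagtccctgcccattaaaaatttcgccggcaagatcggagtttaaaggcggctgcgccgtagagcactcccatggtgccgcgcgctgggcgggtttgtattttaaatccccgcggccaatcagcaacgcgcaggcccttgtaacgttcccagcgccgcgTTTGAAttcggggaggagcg
Cdc20: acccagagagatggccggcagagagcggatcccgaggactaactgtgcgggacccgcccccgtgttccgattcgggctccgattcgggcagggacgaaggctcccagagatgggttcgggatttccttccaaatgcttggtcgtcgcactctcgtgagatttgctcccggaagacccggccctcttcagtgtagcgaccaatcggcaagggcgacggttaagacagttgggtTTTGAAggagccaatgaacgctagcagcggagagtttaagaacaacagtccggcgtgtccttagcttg

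**Figure D3:**
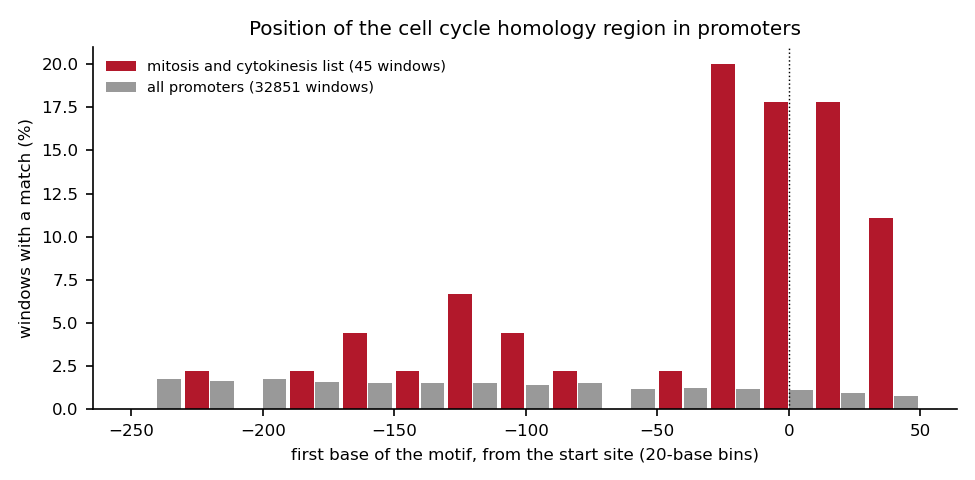
Share of promoter windows with the cell cycle homology region in bins of 20 bases, by the position of its first base from the start site at 0, for the 45 windows of the mitosis and cytokinesis list and all 32851 windows. In the bin from -30 to -11 the motif begins in 20% of the windows of the list and in 1.16% of all windows.

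Genes by which hepatocytes burn fat were lower in Atg7 KO livers. Of 31 tested genes of fatty acid oxidation and ketogenesis, 23 fell and 1 rose, where 15.3% of all genes fell, and the median log2 difference was -0.76. Cyp4a14, a fatty acid hydroxylase under the control of the nuclear receptor PPAR alpha, was at 5.08, 4.53, 6.65 and 4.92 in Atg7 KO livers, against 10.52, 9.70, 12.24 and 12.03 in control livers. The groups did not overlap (log2 difference -5.82, SE 0.59, adjusted p = 5.77e-05). Its relative Cyp4a31 was at -4.52 (SE 0.27). The thioesterase gene Acot1 fell too (-2.57, SE 0.48, adjusted p = 0.00232). The gene called higher was Fgf21, a hormone that the liver releases in fasting and under stress (log2 difference 1.77, SE 0.33, adjusted p = 0.00238). A member that was not called had the highest log2 difference of the list, 3.98. The calls for Acot1 and Fgf21 were lost when sex was a covariate, a fit that rests on 1 male control. Their differences to that control were -2.54 and 1.52. Of 22 genes of peroxisomes, 12 fell and 1 rose (median -0.54). Abcd3, a transporter of the peroxisomal membrane, was at 8.96, 9.0, 8.77 and 9.51 in Atg7 KO livers and at 10.26, 10.49, 10.39 and 10.84 in control livers (log2 difference -1.43, SE 0.18). Agxt, the peroxisomal enzyme that detoxifies glyoxylate, fell by 1.62 on the log2 scale (SE 0.18), and the carrier Slc25a17 rose by 0.82 (SE 0.13). With the arrays scaled to 1 median, fatty acid oxidation had 3 genes lower and 3 higher, at a median of -0.69 relative to all genes, and peroxisomes 2 lower and 1 higher, at -0.36 relative to all genes.

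Of 49 subunits of oxidative phosphorylation, 13 fell (26.5%, against 15.3% of all genes), none rose and 36 did not pass the test (median -0.30). The complex I subunits Ndufb10 and Ndufb9 differed by -1.19 (SE 0.26) and -1.18 (SE 0.29). Of 19 genes of fatty acid synthesis, 8 fell (42.1%) and 1 rose (5.26%, against 19.5% of all genes). Acacb, the acetyl-CoA carboxylase of the mitochondrial surface, fell by 1.28 on the log2 scale (SE 0.19), and Scd2, a desaturase that adult hepatocytes express little, rose by 1.53 (SE 0.26). Of 17 genes of cholesterol synthesis, 6 fell (35.3%) and none rose, with Tm7sf2 (-1.66, SE 0.20) and Ebp (-1.20, SE 0.17) among those that fell. Glycolysis ran otherwise, with 7 of 22 genes higher (31.8%, against 19.5% of all genes) and 3 lower (13.6%, against 15.3%). Of the 22, 1 was not detected on any control array. Pkm, the pyruvate kinase gene of growing and non-hepatocyte tissues, was at 8.93, 8.34, 9.10 and 8.36 in Atg7 KO livers and at 6.67, 6.45, 6.74 and 6.97 in control livers. It was 3.92-fold higher without overlap (adjusted p = 5.27e-05), and the glucose transporter Slc2a1 was 2.15-fold higher. Scaled to 1 median, no gene of oxidative phosphorylation, fatty acid synthesis, cholesterol synthesis or glycolysis was lower. Relative to all genes, the medians of these lists were then -0.35, -0.39, -0.41 and 0.092, in that order.

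Among cytochromes P450 and membrane transporters of hepatocytes more genes fell than rose. Of 28 P450 genes of families 1 to 3, 12 fell (42.9%, against 15.3% of all genes), 2 rose (7.14%, against 19.5%) and 14 did not pass the test (median -0.66). Cyp2c37 was at 10.35, 9.25, 9.08 and 8.76 in Atg7 KO livers, against 12.95, 13.31, 13.31 and 13.29 in control livers (log2 difference -3.85, SE 0.29, adjusted p = 8.72e-06), and Cyp2c54 and Cyp2c29 fell by 4.61 (SE 0.31) and 3.75 (SE 0.35) on the log2 scale. Members of the Cyp2c family are near-identical in sequence, and their probes may not tell them apart. Cyp1a2, a pericentral enzyme that clears caffeine, rose (log2 difference 0.51, SE 0.13, adjusted p = 0.0131), a call that was lost with sex as a covariate. Of 28 solute carriers and exporters, 17 fell (60.7%) and 5 rose (17.9%). Slco1a4, an importer of organic anions, was at 5.86, 6.04, 6.86 and 5.98 in Atg7 KO livers and at 7.38, 8.65, 8.15 and 8.74 in control livers (log2 difference -2.04, SE 0.31), and Slc7a2, an arginine importer, fell by 2.02 (SE 0.25). Abcc3, an exporter on the blood side of the cell, rose like Abcc4 (1.19, SE 0.14). With 1 median for all arrays, 8 P450 genes were lower and 4 higher, whereas 6 transporters were lower and 7 higher. Relative to all genes, the medians of the P450 and transporter lists were then -0.84 and -0.88.

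**Figure D4:**
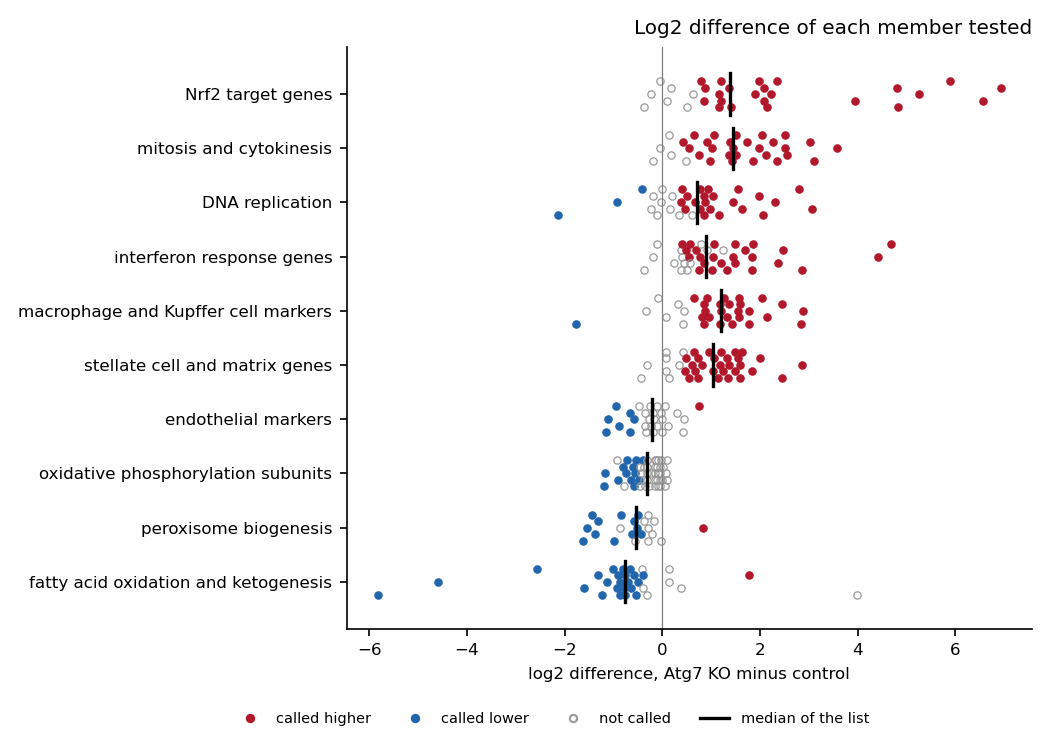
Log2 difference, Atg7 KO minus control, of each tested member of 10 gene lists, with the black bar at the median of the list. Filled points were called higher or lower by limma (adjusted p under 0.05), and the medians lie between 1.44 for mitosis and cytokinesis and -0.76 for fatty acid oxidation.

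Many markers of bile duct cells, stellate cells and macrophages were higher in Atg7 KO livers. Of 25 listed markers of bile duct and progenitor cells 12 were tested, 3 of them not detected on any control array, and 10 rose and none fell (median 1.55). Tspan8 was at 8.63, 8.02, 9.04 and 7.86 in Atg7 KO livers, against 4.30, 4.56, 4.81 and 4.55 in control livers (log2 difference 3.83, SE 0.24), and the tight junction gene Cldn4 was at least 8.17-fold higher. The summed signal of these markers ran from 1756 to 2597 in Atg7 KO livers and from 357 to 650.0 in control livers. Of 44 genes of stellate cells and matrix 37 were tested, 5 of them not detected on any control array, and 29 rose and none fell (median 1.04). With sex as a covariate 16 were higher, and within chip 2 alone 10. Col1a1, the collagen of scars, was at 8.73, 7.49, 7.74 and 6.73 in Atg7 KO livers and 5.18, 4.34, 5.01 and 4.73 in control livers (log2 difference 2.86, SE 0.36, adjusted p = 0.000218). Atg7 KO replicate 1 was the highest and replicate 4 the lowest for Col1a1, and neither overlapped the controls. The summed signal of the matrix list ran from 7715 to 15377 in Atg7 KO livers and from 4909 to 5992 in control livers. Timp1, an inhibitor of matrix proteases, was at least 4.0-fold higher.

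Of 32 markers of macrophages and Kupffer cells, 3 of them not detected on any control array, 25 rose and 1 fell (median 1.20). Their summed signal was 20242 to 22787 in Atg7 KO livers and 7497 to 10484 in control livers. Trem2, a receptor of lipid-laden macrophages, was at 7.26, 7.23, 7.03 and 7.10 in Atg7 KO livers and at 4.23, 4.26, 4.33 and 4.31 in control livers, where no array detected it. It was at least 5.21-fold higher, Gpnmb, a glycoprotein of the same cells, at least 4.05-fold, and Cd14, the co-receptor for bacterial lipopolysaccharide, differed by 2.85 (SE 0.22). The marker that fell was Cd163, a haemoglobin scavenger receptor of resident macrophages, with 5.01, 5.44, 7.21 and 5.68 in Atg7 KO livers and 7.31, 7.50, 7.75 and 7.89 in control livers (log2 difference -1.78, SE 0.39, adjusted p = 0.00568). Atg7 KO replicate 3 came close to the controls for Cd163, and the call was lost with sex as a covariate and with 1 median. Of 28 endothelial markers, 7 fell (25%, against 15.3% of all genes) and 1 rose (3.57%, against 19.5%), at a median of -0.21. Among those that fell, Ehd3, a gene of sinusoidal endothelium, was at -1.11 (SE 0.14) and Wnt2, a ligand made in the central vein and nearby sinusoids, at -1.15 (SE 0.20). Scaled to 1 median, no endothelial gene was lower and 8 were higher, at a median of -0.0985 relative to all genes. The summed signal of the endothelial markers was 3864 to 4524 in Atg7 KO livers and 4865 to 5637 in control livers. Of 13 markers of T, B and NK cells, 1 of them not detected on any control array, 5 rose (38.5%, against 19.5% of all genes). Coro1a, an actin regulator of leukocytes, was among those that rose (1.30, SE 0.18). The summed signal of the 13 was 2429 to 4421 in Atg7 KO livers and 1058 to 1538 in control livers. Of 10 neutrophil markers, 4 of them not detected on any control array, 2 rose (20%, against 19.5% of all genes). These were Lcn2, which hepatocytes also make, and the calcium-binding S100a8, at 7.88, 7.08, 7.61 and 7.98 in Atg7 KO livers and 5.10, 7.26, 5.85 and 6.87 in control livers. The groups overlapped for S100a8, and its call (adjusted p = 0.0276) was lost on leaving out control replicate 3 or any 1 of Atg7 KO replicates 1, 3 and 4.

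Genes of the cytoskeleton rose alongside, 28 of 38 with 1 lower (median 0.95), and 2 of the 38 were not detected on any control array. Tagln2, an actin-binding protein, was at 10.38, 10.39, 10.60 and 9.87 in Atg7 KO livers and at 7.64, 7.45, 7.65 and 8.07 in control livers (log2 difference 2.61, SE 0.19, adjusted p = 5.85e-06), and Tubb6, a beta tubulin, differed by 2.10 (SE 0.24). Among 20 annexins and S100 proteins, which bind calcium and membranes, 11 rose and 1 fell, with 1 of the 20 not detected on any control array. S100a11 was at 11.93, 11.85, 12.09 and 11.97 in Atg7 KO livers, against 7.70, 7.91, 8.05 and 8.44 in control livers, with narrow spread and a wide gap (15.3-fold, adjusted p = 1.09e-07). Anxa2 and Anxa5 were 4.63-fold and 4.47-fold higher. The part that the other cell types described above had in these values was not tested. Of 22 genes known from fetal liver or liver tumours, 3 of them not detected on any control array, 15 rose and 1 fell (median 2.02). Besides Spink1, Ly6d and Tff3 they included the glypican Gpc3, named after its values were seen, at 7.45, 7.28, 8.52 and 8.26 in Atg7 KO livers and 4.30, 4.86, 4.92 and 5.20 in control livers (8.31-fold). The gene that fell was Glul, the glutamine synthetase of the cells around the central vein (log2 difference -2.05, SE 0.22, adjusted p = 8.70e-05).

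Genes induced by interferons rose in Atg7 KO livers, 25 of 38 (65.8%, against 19.5% of all genes) with none lower (median 0.89). Of the 38, 4 were not detected on any control array. Rsad2, an antiviral enzyme known as viperin, was at 12.60, 12.42, 12.31 and 12.32 in Atg7 KO livers, against 7.98, 7.76, 8.53 and 7.73 in control livers (21.4-fold, adjusted p = 1.16e-07). Oasl1, which restrains translation of an interferon regulator in mice, was at 10.76, 10.91, 10.25 and 11.01 in Atg7 KO livers and at 6.55, 6.19, 6.17 and 5.26 in control livers (log2 difference 4.69, SE 0.27). For these 2 genes the lowest Atg7 KO liver was over 3 log2 units above the highest control. Of 11 MHC class II genes, which present antigen to helper T cells, 2 were not detected on any control array. Among the 11, 9 rose and none fell (median 1.23), with H2-Ab1 at 1.69 (SE 0.27) and the invariant chain Cd74 at 1.63 (SE 0.23). With sex as a covariate 6 of them were higher, without H2-Ab1 (adjusted p = 0.0575), and 2 in males alone, without H2-Ab1 and Cd74. Of 22 tested chemokines, 5 of them not detected on any control array, 13 rose and 2 fell. Cxcl14 was at 9.16, 8.09, 7.31 and 6.85 in Atg7 KO livers and between 4.33 and 4.50 in control livers, at least 8.45-fold higher, and Cxcl10, a ligand induced by interferon, was 5.54-fold higher. Ccl2, which draws monocytes, was at least 3.68-fold higher, and Cxcl13, which draws B cells, fell by 1.23 on the log2 scale (SE 0.16), though not with 1 median.

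Of 24 acute phase genes, 6 rose and 5 fell (25% and 20.8%), near the shares over all genes, and with 1 median 7 were higher and none lower. The list median was then -0.29 relative to all genes. Lcn2, an iron-trapping protein of inflamed liver and of neutrophils, was at 12.12, 12.75, 13.04 and 11.93 in Atg7 KO livers and at 6.79, 8.87, 8.22 and 8.35 in control livers, 21.1-fold higher (adjusted p = 3.15e-05). The protease inhibitor Slpi differed by 4.27 (SE 0.44). Against these, Saa3 and the interleukin-6 receptor Il6ra fell by 1.44 (SE 0.22) and 1.19 (SE 0.23) on the log2 scale, calls that were lost with 1 median. Of 25 genes of iron, haem and metallothioneins, 6 rose and 4 fell (24% and 16%), near the 19.5% and 15.3% of all genes. Hamp2, which in mice is a copy of the hepcidin gene, was at 11.75, 9.68, 10.64 and 8.53 in Atg7 KO livers and at 13.11, 13.72, 13.59 and 13.83 in control livers, below every control but spread over more than 3 log2 units (log2 difference -3.41, SE 0.55, adjusted p = 0.000944). Its call was lost within chip 1. Blvrb, which reduces biliverdin and flavins, was 3.70-fold higher.

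Few genes of the proteasome were called, and among genes of autophagy itself more fell than rose. Of 32 autophagy receptors and core genes, 3 rose (9.38%, against 19.5% of all genes) and 8 fell (25%, against 15.3%), at a median of -0.16. Besides Sqstm1, the mitophagy receptor Fundc1 rose (0.62, SE 0.13, adjusted p = 0.00521), though not within either chip. Atg9a, a membrane protein that supplies the growing autophagosome, was at 5.67, 5.76, 5.66 and 5.61 in Atg7 KO livers and at 6.63, 6.59, 6.67 and 6.35 in control livers (log2 difference -0.89, SE 0.12). Atg3, which works directly after Atg7, was at -0.95 (SE 0.16). With 1 median no autophagy gene was lower and 12 were higher, at a list median of -0.0043 relative to all genes. Of 27 proteasome subunits, 24 did not pass the test, 1 rose (3.7%) and 2 fell (7.41%), at a median of 0.0030. The one that rose was Psmd8 (0.98, SE 0.13). Of 33 lysosomal genes, 12 rose and 4 fell, against 4 and 2 with sex as a covariate and 19 and 0 with 1 median. With neither change, 36.4% of the lysosomal genes rose and 12.1% fell, against 19.5% and 15.3% of all genes. The largest rise was that of Cd63, a membrane protein of late endosomes, at 9.46, 8.87, 9.80 and 9.10 in Atg7 KO livers and 6.63, 6.35, 6.65 and 6.65 in control livers (6.66-fold).

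Genes of the integrated stress response moved in both directions, and few cytosolic chaperones were called. Of 29 genes of this response and the endoplasmic reticulum, 4 rose (13.8%, against 19.5% of all genes) and 7 fell (24.1%, against 15.3%). Atf3, a transcription factor induced by many stresses, was at 6.28, 6.11, 5.95 and 6.03 in Atg7 KO livers and at 4.19, 4.33, 4.22 and 4.89 in control livers (log2 difference 1.69, SE 0.17), and Nupr1, a small stress-induced chromatin protein, differed by 1.67 (SE 0.24). Atf5 and the mitochondrial enzyme Shmt2 fell by 1.06 (SE 0.19) and 0.87 (SE 0.14). Scaled to 1 median, none of this list was lower and 8 were higher, at a median of -0.23 relative to all genes. Of 19 cytosolic chaperones, 3 rose (15.8%, against 19.5% of all genes) and none fell. Hspb1, a small heat shock protein, was at 8.59, 8.81, 8.98 and 8.51 in Atg7 KO livers and at 7.97, 6.73, 7.23 and 6.67 in control livers (2.97-fold). The male control was the highest control for Hspb1, and its call was lost with sex as a covariate. Of 42 ribosomal protein genes, 14 rose and none fell (median 0.33), for example Rps12 (0.74, SE 0.14), and with sex as a covariate 2 rose.

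The sexes of the livers were not balanced, and some genes known to differ between male and female livers were called between the groups. With 1 male control, sex and genotype cannot be told apart for such genes. Xist, the X-inactivation transcript, and the Y-linked Eif2s3y and Kdm5d followed the labelled sex on all 8 arrays, and they were called between the groups (log2 differences -3.14, 3.54 and 1.24). The Y-linked Uty did not follow it, with 5.11, 4.98, 4.58 and 5.29 in Atg7 KO livers, 5.58 in the male control and 5.47, 4.87 and 4.39 in the female controls. Cyp2b13, a P450 of female livers, was at 4.24, 4.28, 4.48 and 4.26 in Atg7 KO livers, at 4.26 in the male control and at 12.64, 12.14 and 12.18 in the female controls. The male control thus lay among the Atg7 KO livers. Gstp1, a pi-class transferase of male livers, was at 13.07, 13.19, 13.23 and 13.10 in Atg7 KO livers, at 13.11 in the male control and at 10.39, 10.44 and 10.36 in the female controls, again with the male control inside the Atg7 KO range. Sult2a2, a sulfotransferase of female livers, was at 5.51, 4.25, 8.42 and 4.54 in Atg7 KO livers, at 4.56 in the male control and at 12.11, 12.67 and 12.69 in the female controls. Its call (log2 difference -4.83, SE 1.68, adjusted p = 0.0473) was lost without any 1 of Atg7 KO replicates 1, 2 and 4 and of the female controls. The calls for these 6 genes were lost with sex as a covariate, a fit in which the difference is that between 4 Atg7 KO livers and 1 male control.

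Of 27 female-biased liver genes 14 fell and 2 rose (median -1.91), and with sex as a covariate 2 fell and 3 rose (median 0.11). Of 25 male-biased genes 6 fell and 2 rose (median -0.67), and with sex as a covariate 9 fell and none rose (median -2.11). Hsd3b5, a steroid enzyme of male livers, was at 4.39, 4.51, 4.31 and 4.45 in the male Atg7 KO livers, where no array detected it, against 11.84 in the male control and 8.62, 6.84 and 6.89 in the female controls. It was at least 15.95-fold lower in Atg7 KO livers, and its largest gap was to the male control. Acot3, a peroxisomal thioesterase, was at 4.79, 4.70, 5.92 and 5.34 in Atg7 KO livers, 6.56 in the male control and 11.05, 9.52 and 11.99 in the female controls. Its call (log2 difference -4.59, SE 0.94, adjusted p = 0.00375) was lost with sex as a covariate. Lpl, the lipase that takes fat from lipoproteins, was at 12.21, 11.98, 12.46 and 11.86 in Atg7 KO livers, 9.30 in the male control and 8.12, 8.94 and 9.55 in the female controls, so that it stood above controls of both sexes (8.87-fold, adjusted p = 2.35e-05). Over all genes, the fit with sex as a covariate called 1310 genes higher and 855 lower, and 1824 of the 3732 calls were kept. In that fit 22 mitotic genes and 17 Nrf2 targets were higher, and 5 genes of fatty acid oxidation and none of oxidative phosphorylation were lower.

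**Figure D5:**
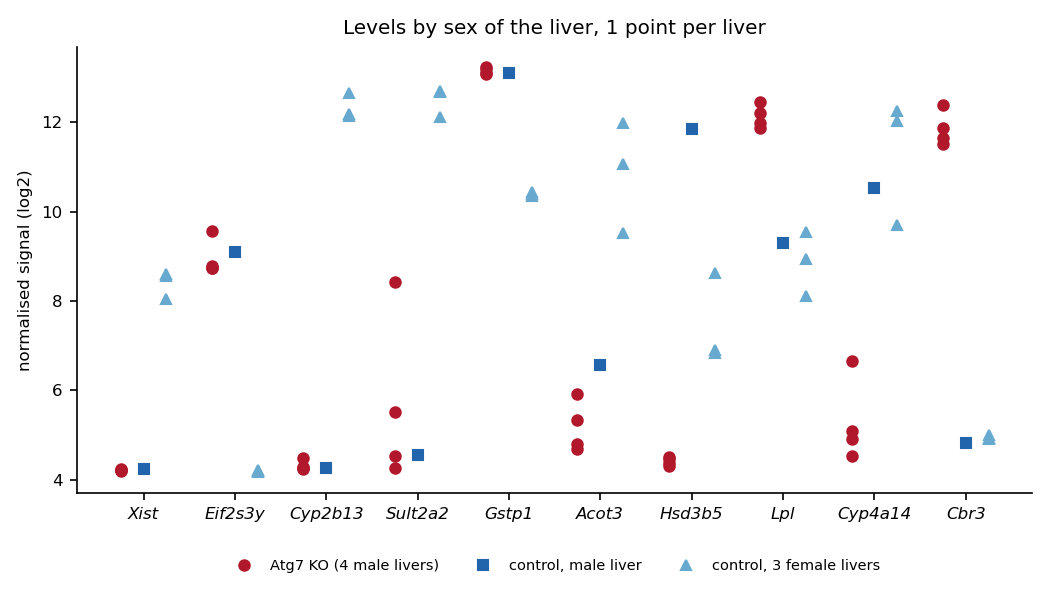
Log2 signal of 10 genes in each Atg7 KO liver, the male control and the female controls, 1 point per liver. For Cyp2b13, Sult2a2 and Gstp1 the male control lies with Atg7 KO livers, while for Lpl, Cyp4a14 and Cbr3 controls of both sexes lie apart from them.

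Set against the livers of Olig1-Cre mice in place of the controls, the Atg7 KO livers differed in 17 of 10711 genes (0.159%), with 8 higher (0.0747%) and 9 lower (0.084%) and 1538 at an unadjusted p under 0.05 from limma. With sex as a covariate, 114 genes were higher and 87 lower. The 2 comparisons share the Atg7 KO arrays. Cbr3, at 12.38, 11.51, 11.65 and 11.86 in Atg7 KO livers, was at 11.81, 10.09, 12.02 and 11.29 in Olig1-Cre livers, and Spink1 was at 12.44, 10.26, 12.52 and 12.03 in Olig1-Cre livers. Both genes overlapped between these groups, and the lowest value was that of Olig1-Cre replicate 2, the male. Prc1 was at 8.21, 6.29, 8.47 and 8.06 in Olig1-Cre livers (log2 difference 1.16, SE 0.46, adjusted p = 0.292) and did not pass the test.

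For some of the 17 genes the controls were split by mouse line. Dennd2a, a regulator of membrane traffic, was at 4.42, 4.39, 4.35 and 4.28 in Atg7 KO livers and at 5.90, 5.94, 5.98 and 6.24 in Olig1-Cre livers (log2 difference -1.66, SE 0.11, adjusted p = 0.000624). Among the controls it was at 4.68 and 4.26 in the Alb line and at 5.84 and 5.88 in the Olig1 line. Ccdc126 was at 7.43, 7.38, 7.72 and 7.45 in Atg7 KO livers and between 6.37 and 6.54 in Olig1-Cre livers, while the controls were at 7.38 and 7.43 in the Alb line and 6.66 and 6.47 in the Olig1 line. For both genes the controls of each line lay close to the Cre mice of that line. Gstk1 was at 9.28, 9.35, 9.57 and 10.01 in Atg7 KO livers, below the Olig1-Cre livers (11.42 to 11.66), the Alb-line controls (10.32 and 10.90) and the Olig1-line controls (11.87 and 11.62). Dennd2a, Ccdc126, Gstk1 and Tcaf1, 4 of the 17 (23.5%), lie on chromosome 6, which held 545 of all genes tested (5.09%). This was seen after the calls were known and was not tested, and the call for Tcaf1 was lost without any 1 of Atg7 KO replicates 2, 3 and 4 and of Olig1-Cre replicates 1, 3 and 4. Cachd1 and Igsf1 were higher in Atg7 KO livers than in Olig1-Cre livers by 1.58 (SE 0.18) and 1.34 (SE 0.18) and than in controls by 2.22 (SE 0.15) and 1.95 (SE 0.19) on the log2 scale. Against Olig1-Cre livers, the call for Cachd1 was lost without Atg7 KO replicate 2 or 3. That for Igsf1 was lost with chip as a block. It was also lost without any 1 of Atg7 KO replicates 2, 3 and 4 and of Olig1-Cre replicates 3 and 4. Without single arrays of the 2 groups, between 1 and 13 genes were higher and between 2 and 16 lower.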

How the data were processed

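RNA of whole liver was hybridised to MouseWG-6 v2.0 bead arrays. The deposited intensity of each probe was the mean bead signal, neither background-subtracted nor normalised, and the deposited detection p-value set it against the negative control beads of its array. The deposited log2 values, normalised by the authors, served as an alternative, and GenomeStudio and limma 3.22.1 are named in the submitters' processing notes. The methods describe a cubic spline in GenePattern, a gene's median over its probes, and biological replicates. They name mice of both sexes and Cre-negative littermates as controls. By the labels, all Atg7 KO livers were male and part of the controls came from the Olig1 line. Whether those controls were littermates of the Atg7 KO mice is not given. The number of arrays limits the precision.

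Computations used R 4.3.3, limma 3.58.1 and the package data.table (version 1.17.8). The intensities of all 12 arrays were normalised with neqc (background correction on detection p-values, offset 16, quantiles, log2). The offset draws differences of dim genes toward 0. Probes with a detection p under 0.05 on at least 4 arrays were kept (19528 of 45281), of which 16727 had 1 symbol, and probes of a gene were replaced by their median. Atg7 KO was tested against control, and separately against Olig1-Cre, with lmFit and eBayes, two-sided, with Benjamini-Hochberg adjustment over 10711 genes, called at an adjusted p under 0.05. The fit was tested on simulated data. No per-sample column was left unused (0).

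The genes described were the 12 highest and 12 lowest log2 differences among called genes whose groups did not overlap, up to 3 called members of each of 40 lists in each direction, Atg7 and sex chromosome genes. For any gene outside this rule the text says that it was chosen on its values, as were the genes of the comparison with Olig1-Cre. The members and lists were chosen with earlier results of these data known. For 17 genes, probes were called in opposite directions. Promoter windows came from RefSeq (GRCm38.p6). Alternatives covered normalisation, filters, probe choice, the methods' t-test, sex, chip, mouse line and the leaving out of each array.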

Additional observations from a re-analysis of the deposited data

Results flagged for a closer look

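In 22 of 330 groups of 4 livers, over the genes described, 1 liver lay far from the other 3 (gap over range above 0.829). Chance alone does so in about 1 in 20 groups. Values are log2 signals.

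Of these livers 9 were the male control, the only male among 4 controls. It was at 4.26 for Cyp2b13 (the nearest female control at 12.14), 4.56 for Sult2a2 (12.11), 4.23 for Xist (8.03), 9.1 for Eif2s3y (4.22), 5.61 for Kdm5d (4.31) and 13.11 for Gstp1 (10.44). It was also at 12.95 for Cyp2c37 (13.29), 8.11 for Sdf2l1 (6.95) and 6.07 for Tff3 (4.35).

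Among Atg7 KO livers, replicate 3 was at 4.64 for Ces3b (the nearest other liver at 8.65), 9.02 for Mcm5 (7.73), 13.71 for Hp (13.97) and 10.85 for Lamp2 (11.02). Replicate 4 was at 5.32 for Glul (4.76), 8.08 for Pck1 (6.26) and 9.57 for Eif2s3y (8.79). Replicate 2 was at 5.92 for Atg10 (6.2) and replicate 1 at 9.51 for Tfrc (9.19). Among female controls, replicate 2 was at 6.44 for Ccl27a (7.49), 5.58 for Cd14 (6.23) and 6.35 for Cd63 (6.63), and replicate 4 at 7.08 for Lyve1 (6.5).

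Outside the genes tested, 2801 probes that passed the detection filter had no single gene symbol. Of these 778 were called by limma, 365 higher and 413 lower in Atg7 KO than in control livers.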

How the results depend on the processing

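No paired analysis was possible because the labels give no replicate numbers. Those used here follow the order of the arrays within each group. With arrays scaled to 1 median, 4854 genes were higher and 163 lower in Atg7 KO than in control livers. With sex as a covariate 1310 were higher and 855 lower, and in males alone, against 1 control assumed to vary like the Atg7 KO livers, 928 and 541. Chip 1 alone gave 1132 and 740, chip 2 alone 928 and 669, and controls of the Alb line alone 1470 and 1082. Without single arrays, 1725 to 2023 genes were higher and 1264 to 1655 lower, and 2942 to 3290 of the 3732 calls were kept. The methods' t-test gave 1805 higher and 1387 lower after adjustment (2445 and 2096 before). Some of these fits used fewer arrays, and why the counts moved was not tested. Against Olig1-Cre livers, scaling to 1 median gave 29 higher, sex as a covariate 114 higher and 87 lower, and chip as a block 4 and 4, while single arrays left out gave 1 to 13 higher and 2 to 16 lower.

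Of 165 called genes under the rule, 72 kept their call in every alternative, 93 lost it in some, and 16 changed sign. Log2 differences that changed sign with 1 median were those of Ccl27a (0.0239), Fech (0.41), Keap1 (0.79), Lamp2 (0.0234), Npc1 (0.37), Pdk2 (0.39), Pfkm (0.29), Pola2 (0.37), Psmc1 (0.34), S100a13 (0.21), Scarb2 (0.13), Tfr2 (0.00609) and Uty (0.38). With sex as a covariate and in males alone they were those of Cyp2b13 (0.0551), Eif2s3y (-0.14) and Sult2a2 (1.12), and with sex over 12 arrays those of Eif2s3y (-0.22), Kdm5d (-0.0606), Sult2a2 (0.68) and Xist (0.00756). Within chip 2 Keap1 was at 0.0430 and Uty at 0.30. Uty, not called, was at 0.0110 with no detection filter, at 0.0577 against the Olig1 line and between -0.32 and 0.0797 without single arrays.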
